A study of Mus musculus with 3 samples.

Results

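mt-Rnr1 and mt-Rnr2 are the 2 ribosomal RNA genes among the 37 genes of the mouse mitochondrial chromosome. They were taken by annotated position: mt-Rnr1 (ENSMUSG00000064337.1) spans bases 70 to 1024 and mt-Rnr2 (ENSMUSG00000064339.1) spans bases 1094 to 2675, both on the plus strand. RNA-seq coverage was measured in mouse embryos at the 2-cell stage, collected at embryonic day 1.5, with 1 library for each of 3 litters and no other group. The mothers, of a mixed strain with C57/Bl6J, were LSD1 FL/FL, a floxed histone demethylase gene, and negative for ZP3::Cre, a transgene whose promoter is active in oocytes. The labels give wild type fathers as CB6 males in one place and as C57/Bl6J in another. Each library is labelled as 1 litter, lysed whole, and its RNA was copied and multiplied by SPIA before sequencing. How many embryos or mothers stand behind a litter is not given, and fewer cells of a type and less RNA per cell cannot be told apart in such pools.

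Nuclear alignments numbered 34014013, 32431630 and 40474940 in litters 1 to 3. The mitochondrial chromosome took 30.4%, 28.6% and 26.3% of nuclear and mitochondrial alignments together. Any reference sequence with a vertical bar in its name was left out of the nuclear total. Of the nuclear alignments, 13.3%, 11.0% and 8.35% lay in 9 windows that share runs of start counts with the mitochondrial chromosome. The nuclear total thus includes alignments that may also be counted as mitochondrial, in a share that differs by litter. Values are unscaled read coverage per base, from which the start of each alignment of 72 bases was recovered. Strand is unknown, so RNA of either strand counts alike.

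Mitochondrial genes are transcribed as long precursors in which tRNA genes lie between the larger genes, and cutting out the tRNAs releases the ribosomal RNAs. The 12S RNA of mt-Rnr1 builds the small subunit of the mitochondrial ribosome and the 16S RNA of mt-Rnr2 builds the large one. With imported proteins they form the ribosome that translates the 13 mitochondrial protein genes. The early embryo lives on mitochondria inherited from the oocyte. mt-Tf, the gene of the tRNA for phenylalanine, precedes mt-Rnr1, mt-Tv (valine) lies between both ribosomal RNA genes, and mt-Tl1 (leucine) follows mt-Rnr2 and precedes mt-Nd1, a subunit gene of the NADH dehydrogenase.

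The junctions between these genes are shown first, because the alignments that lie across them are counted later. Capitals mark ribosomal RNA bases, lower case marks tRNA bases, and positions are those of GRCm38 on the plus strand, from the GENCODE transcripts.
mt-Tf, bases 39 to 68: gcttagatggataattgtatcccataaaca
mt-Rnr1, bases 70 to 119: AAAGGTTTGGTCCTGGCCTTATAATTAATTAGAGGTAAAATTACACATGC
mt-Rnr1 into mt-Tv, bases 995 to 1054: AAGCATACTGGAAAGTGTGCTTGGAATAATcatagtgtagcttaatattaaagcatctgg
mt-Tv into mt-Rnr2, bases 1064 to 1123: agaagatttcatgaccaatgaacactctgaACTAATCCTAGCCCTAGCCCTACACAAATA
mt-Rnr2 into mt-Tl1, bases 2646 to 2705: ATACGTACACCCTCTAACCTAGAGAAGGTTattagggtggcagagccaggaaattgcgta

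mt-Rnr2 was the most covered gene of the chromosome in every litter. Its mean coverage was 293931, 277585 and 369973 reads per base in litters 1 to 3. mt-Rnr1 had the second level in each, at 134822, 99948 and 120936 reads per base. Per base, mt-Rnr2 exceeded mt-Rnr1 by 2.18, 2.78 and 3.06 fold, a mean of 2.67 ± 0.449 (SD, n = 3). The direction was the same in 3 of 3 litters, and an exact permutation of the signs (two-sided) gave p = 0.25, the smallest p that 3 litters allow. With the median base of each gene in place of the mean, the ratio was 1.39.

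The ribosomal RNA genes took 67.4% of mitochondrial aligned bases in litter 3, and 55.6% and 57.2% in litters 1 and 2. Counted by alignments that start in either gene, the share was 67.3% in litter 3 (95% Wilson interval 67.28% to 67.32%), 55.5% in litter 1 (55.49% to 55.54%) and 57.1% in litter 2 (57.11% to 57.17%). These intervals hold counting error alone, since reads of amplified cDNA that carry no molecular identifier may be copies. mt-Rnr2 alone took 56.3% of mitochondrial aligned bases in litter 3, and 43.5% and 47.0% in litters 1 and 2. mt-Rnr1 stood at 11.1% in litter 3, between the 12.1% and 10.2% of litters 1 and 2.

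Set against the total of nuclear alignments, litter 3 stood apart in the protein genes more than in the ribosomal RNA genes. Both ribosomal RNA genes together gave 242, 229 and 240 alignments per 1000 nuclear alignments in litters 1 to 3, so the highest litter exceeded the lowest by 5.90%. The 13 protein genes gave 191, 169 and 114. Litter 3 was the lowest of the 3 in 13 of 13 protein genes. Its level there was 0.673 of the mean of litters 1 and 2 in the median protein gene, with a range of 0.546 to 0.714, whereas it was 1.06 of that mean in mt-Rnr2 and 0.848 in mt-Rnr1. The ratio of ribosomal RNA to protein gene bases, which needs no nuclear scale, was 1.27, 1.36 and 2.11 in litters 1 to 3.

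The nuclear scale changed how alike the litters were. With factors from the median of ratios over all 86838 windows of 10 kb covered in every litter, the ribosomal RNA genes gave 250, 196 and 274 in litters 1 to 3, so litter 3 was then highest. On that scale litter 3 exceeded the mean of litters 1 and 2 by 1.18% in mt-Rnr1, against a difference of -15.2% by nuclear total, so the direction in mt-Rnr1 turned. In mt-Rnr2 the excess was 28.2%, against 6.28% by nuclear total. The protein genes still gave their lowest value in litter 3, at 130, below 197 and 145 in litters 1 and 2, and 9 of the 13 were lowest there. Litter 3 then differed from the mean of litters 1 and 2 by 22.8% in the ribosomal RNA genes and by -23.9% in the protein genes. Both differences were of similar size, unlike those by nuclear total. With only the 29913 windows of at least 100 alignments on average, the ribosomal RNA genes gave 251, 214 and 238 in litters 1 to 3. There litter 3 differed from the mean of litters 1 and 2 by -15.4% in mt-Rnr1 and 6.73% in mt-Rnr2. The difference in the protein genes was -36.5%, and 13 of 13 were lowest in litter 3. These differences lay near those by nuclear total, so the direction in mt-Rnr1 did not turn on that scale. Each litter is 1 library, so no litter was tested against another.

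**Figure D1:**
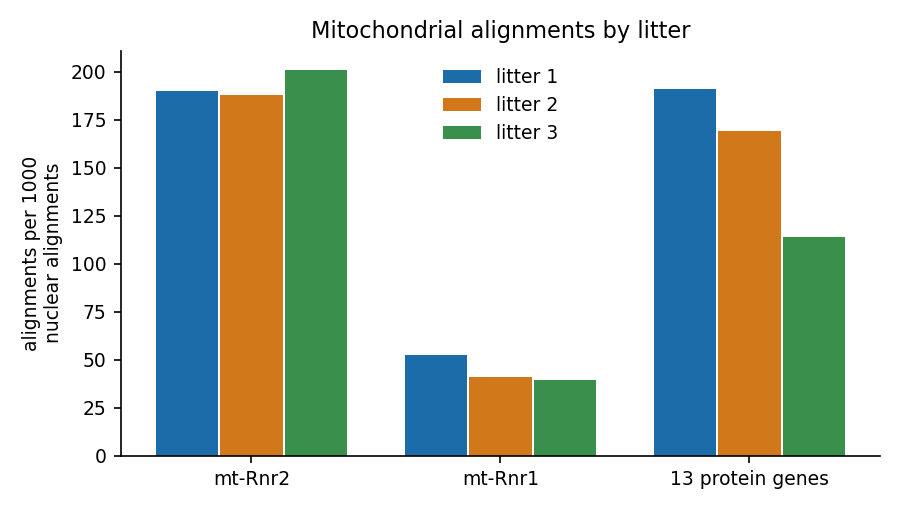
Bars give alignments per 1000 nuclear alignments (linear axis from 0) for mt-Rnr2, mt-Rnr1 and the sum of 13 protein genes, with 1 bar per litter. The mt-Rnr2 bars lie between 188 and 201, while the protein gene bars lie between 114 and 191, with litter 3 lowest.

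Along mt-Rnr1, coverage rose to its highest base at 400, 400 and 324 of the chromosome in litters 1 to 3 and fell by more than 100 fold before the 3′ end. In steps of 50 bases, the first step (bases 70 to 119) had 66153, 48359 and 55367 reads per base in litters 1 to 3. The highest step by the mean of the litters, bases 370 to 419, had 274695, 236153 and 237576. In litter 3 alone the step before it, bases 320 to 369, was higher, at 244748. From there coverage declined to 72138, 36568 and 65092 at bases 770 to 819. Within the next 3 steps it dropped to 1784, 605 and 960 at bases 920 to 969, and it stayed at that level up to the last base. The final 205 bases, from 820 to 1024, held 1.13% ± 0.235 of the gene's aligned bases (SD, n = 3) and were a gap in every litter.

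A peak is here a step at 2 or more times the median step of its gene in all 3 litters, and a gap is a step at 0.5 or less in all 3. By that rule mt-Rnr1 had 1 peak step of 20, at bases 320 to 369, and 5 gap steps, which are the final 205 bases. The neighbouring steps fell just short of a peak. Bases 270 to 319 stood at 2.00, 2.56 and 1.99 times the median step in litters 1 to 3, and bases 370 to 419 at 2.09, 2.82 and 1.96. The sequences of the highest and the lowest step are given for comparison, in lower case because no base is singled out.
mt-Rnr1 highest step, bases 370 to 419: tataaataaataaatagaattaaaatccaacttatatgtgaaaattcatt
mt-Rnr1 lowest step, bases 920 to 969: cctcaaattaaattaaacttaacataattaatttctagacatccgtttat
Both are poor in G and C, with 14% in the highest step and 22% in the lowest. The step after the lowest, bases 970 to 1019, had nearly the same coverage, 1794, 668 and 1016 in litters 1 to 3. It holds 44% G and C. In litter 1 alone the last step, bases 1020 to 1024, was lower still, at 1678.

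**Figure D2:**
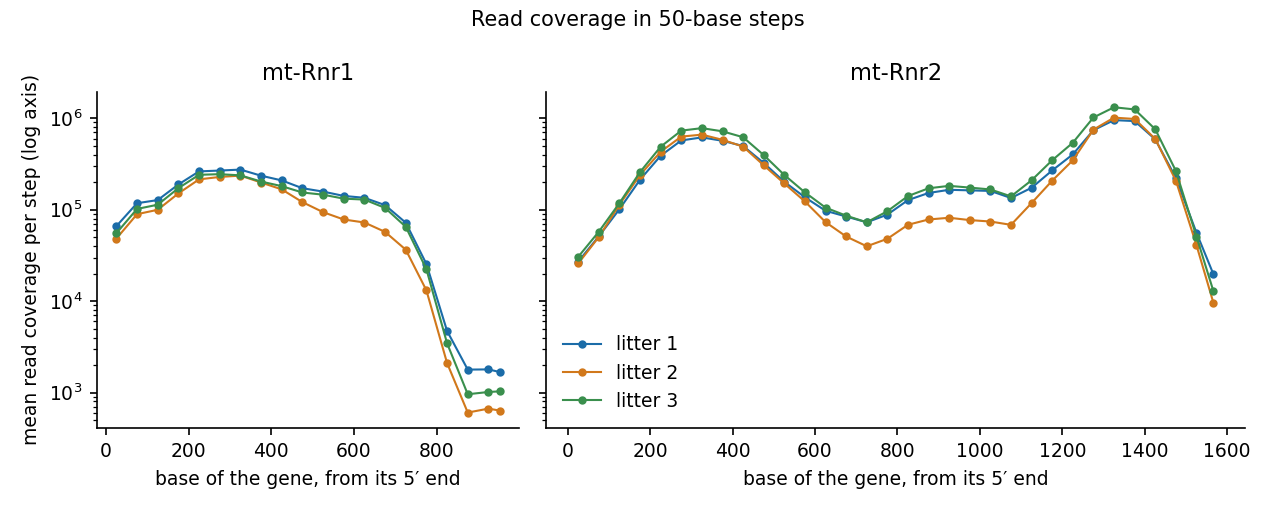
Points are mean read coverage in 50-base steps (log axis) against the base of the gene counted from its 5′ end, for mt-Rnr1 and mt-Rnr2, with 1 line per litter. mt-Rnr1 falls to between 605 and 1784 near its 3′ end, and mt-Rnr2 shows a peak on each side of a trough.

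mt-Rnr2 had a different shape, with 2 peaks on either side of a broad trough. The first peak covered 5 steps, bases 1294 to 1543, and held 29.6% ± 1.92 of the gene's aligned bases (SD, n = 3). The second also covered 5 steps, bases 2294 to 2543, and held 40.9% ± 1.74. The top of the first, bases 1394 to 1443, had 617939, 662374 and 780187 reads per base in litters 1 to 3. The top of the second, bases 2394 to 2443, had 954840, 1016651 and 1319718. The second exceeded the first by 1.55, 1.53 and 1.69 fold, a mean of 1.59 ± 0.0876.

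The bottom of the trough lay at bases 1794 to 1843, with 72828, 39824 and 72864 reads per base in litters 1 to 3. The first peak stood 8.48, 16.6 and 10.7 fold above it, and the second 13.1, 25.5 and 18.1 fold. Litter 2 had the deepest trough. The trough included 2 gap steps (bases 1744 to 1843), and 4 more gap steps lay at the gene's ends, at bases 1094 to 1193 and 2594 to 2675. The base of highest coverage was 2454 in litters 1 and 3 and 2449 in litter 2, with 1017710, 1382320 and 1082220 reads in that order of litters.
mt-Rnr2 top of the first peak, bases 1394 to 1443: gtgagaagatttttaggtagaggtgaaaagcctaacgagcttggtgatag
mt-Rnr2 trough, bases 1794 to 1843: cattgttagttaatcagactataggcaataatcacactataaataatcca
mt-Rnr2 top of the second peak, bases 2394 to 2443: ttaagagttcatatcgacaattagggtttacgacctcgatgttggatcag
These 3 steps hold 42%, 28% and 40% G and C. Over all 32 steps of mt-Rnr2, G and C content and log2 relative coverage had a Pearson correlation of 0.18, and over the 19 full steps of mt-Rnr1 of -0.01. Neighbouring steps share alignments, and these are descriptions within the same libraries.

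**Figure D3:**
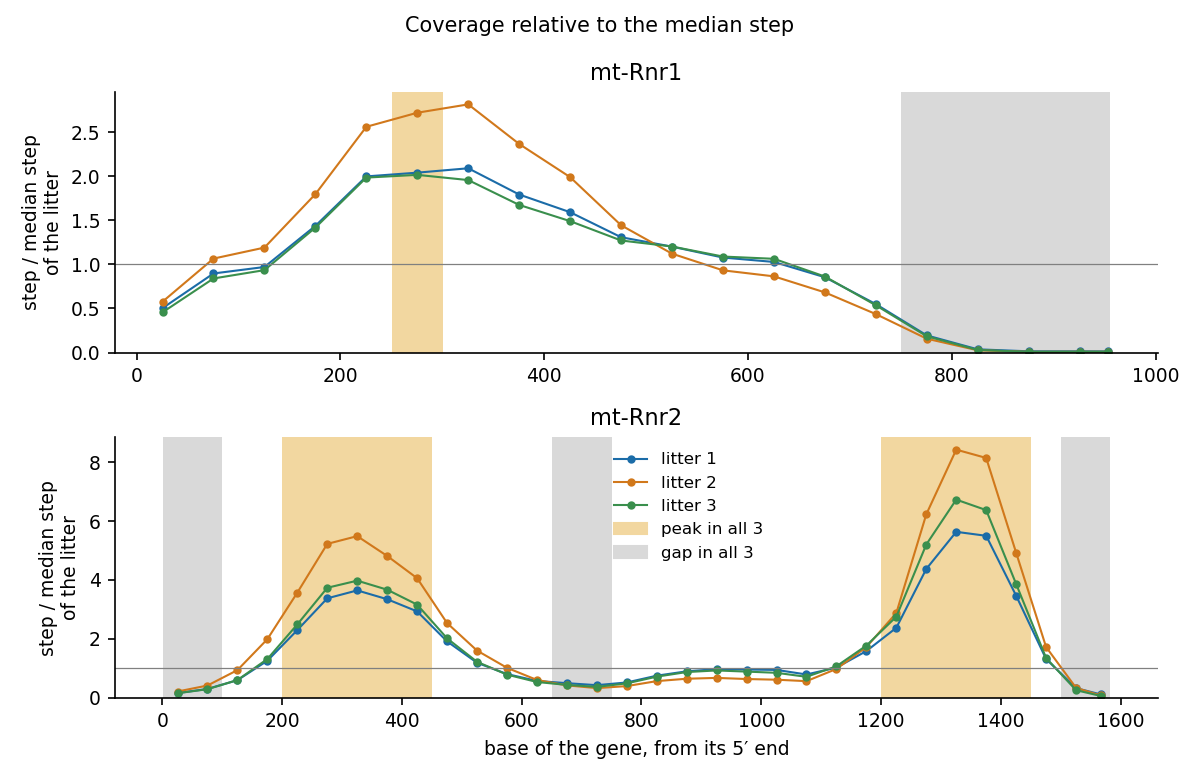
Each point is the coverage of a 50-base step divided by the median step of its litter (linear axis from 0), against the base of the gene. Shading marks steps called a peak or a gap in all 3 litters. mt-Rnr1 has 1 peak step and 5 gap steps at its 3′ end, and mt-Rnr2 has 10 peak steps in 2 runs and 6 gap steps.

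Peak steps made up 31.25% of the 32 steps of mt-Rnr2 and 5% of the 20 of mt-Rnr1. In the 13 protein genes, which show the background of the same rule, 8.15% of 233 steps were peaks. Gap steps made up 18.75% in mt-Rnr2 and 25% in mt-Rnr1, against 21.0% in the protein genes, so the share of gaps was near the background. Among protein genes, mt-Nd4 had the most peak steps, 7 of 28.

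The profile recurred in each litter. For mt-Rnr1, Pearson correlations of log2 step coverage over 20 steps were 0.998 (litters 1 and 2), 0.999 (1 and 3) and 0.996 (2 and 3). Over the 32 steps of mt-Rnr2 they were 0.974, 0.997 and 0.979 in the same order of pairs. Spearman correlations were 0.971 to 0.989 in mt-Rnr1 and 0.977 to 0.999 in mt-Rnr2. The steps share their base composition between litters, and they are not independent replicates. Litter 2 departed most in both genes. Per nuclear alignment its steps stood at 0.356 to 0.902 times those of litter 1 in mt-Rnr1, lower in 20 of 20 steps, and at 0.485 to 1.18 times in mt-Rnr2, higher in 14 of 32. Litter 3 exceeded the mean of litters 1 and 2 in 21 of 32 steps of mt-Rnr2 and in 2 of 20 steps of mt-Rnr1. These counts move with the nuclear scale: over all covered windows they were 31 of 32 and 7 of 20, and without windows that share runs with the mitochondrial chromosome 16 of 32 and 0 of 20. Over all covered windows litter 2 exceeded litter 1 in 0 of 32 steps of mt-Rnr2.

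At the 5′ ends, alignments began to start abruptly, close to the annotated first base. At mt-Rnr1, base 65 had 100, 67 and 198 starts in litters 1 to 3, and base 66 had 1769, 1335 and 1333. The annotated first base, 70, had 4676, 3184 and 3218. At mt-Rnr2, base 1088 had 54, 36 and 53 starts, base 1089 had 130, 144 and 165, base 1090 had 599, 563 and 676, and the annotated first base, 1094, had 688, 686 and 710. In both genes and in all 3 litters, the largest rise over the preceding 5 bases fell 4 bases before the annotated first base. At mt-Rnr2 the starts had already begun to climb 1 base earlier, at base 1089. Base 66 lies in the last 3 bases of mt-Tf, and base 1090 in the last 4 of mt-Tv, both shown above. Whether this offset lies in the reads, the alignment or the annotation was not tested.

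Over windows of 20 bases that meet at this rise, starts were far denser on the gene's side. The windows thus meet ahead of the annotated first bases, 70 and 1094. Their border lies where the rise was seen in these same counts, so the folds describe the rise and are no test of it. At mt-Rnr1, bases 65 to 84 held 48525, 34302 and 36510 starts in litters 1 to 3, and bases 45 to 64 held 1795, 1323 and 3143, a rise of 21.5 ± 8.60 fold (SD, n = 3). At mt-Rnr2, bases 1089 to 1108 held 19494, 20155 and 22888 starts and bases 1069 to 1088 held 780, 320 and 616, a rise of 41.7 ± 19.4 fold. The first base itself was no single spike in mt-Rnr2, where it stood at 1.43 ± 0.0801 times the median of the 20 bases on each side and at 0.939 times that of 10 bases. In mt-Rnr1 it stood at 3.43 ± 0.354 times the median of 20 bases and 2.52 times that of 10.

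**Figure D4:**
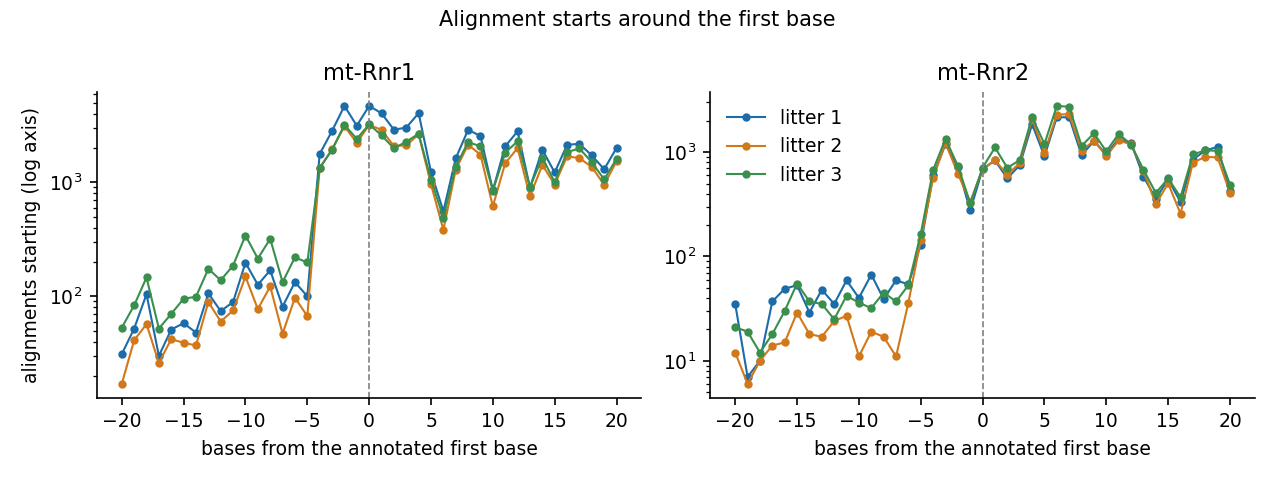
Points are the number of alignments starting at each base (log axis) from 20 bases before to 20 bases after the annotated first base, marked by the dashed line, with 1 line per litter. In both genes and all litters the largest rise falls 4 bases before that line, and in mt-Rnr2 the climb begins 5 bases before it.

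No edge of that size was seen at the annotated 3′ ends. Here the windows meet at the annotated last base, unlike those at the 5′ ends, so the ratios of both ends are not measured alike. At mt-Rnr1, alignments that ended in the last 20 bases numbered 546, 186 and 279 in litters 1 to 3, and those that ended in the 20 bases beyond numbered 559, 237 and 315, a ratio of 0.882 ± 0.0960. At mt-Rnr2 they numbered 7348, 4550 and 5681 inside and 4941, 2060 and 2868 beyond. The ratio was 1.49, 2.21 and 1.98 in litters 1 to 3, a mean of 1.89 ± 0.369, so fewer ended beyond in each litter. The last base of each gene stood at 1.27 ± 0.799 (mt-Rnr1) and 0.900 ± 0.136 (mt-Rnr2) times the median end count of its 20 neighbours on each side.

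End coverage differed between both genes. The first 50 bases of mt-Rnr1 had 51.3% ± 6.08 of the coverage of its median step, and its last 50 bases 0.999% ± 0.312 (SD, n = 3). In reads per base, the last 50 bases had 1782, 666 and 1023 in litters 1 to 3, and the first 50 exceeded them by 37.1, 72.6 and 54.1 fold. In mt-Rnr2 the first 50 bases had 17.7% ± 3.27 of the median step and the last 50 had 10.4% ± 2.74, a ratio of 1.77 ± 0.511. The 13 protein genes had a median of 31.5% at the first 50 bases by position (4.73% to 177%) and of 21.1% at the last 50 (2.55% to 204%). The end of mt-Rnr1 lay below the last 50 bases of all 13, the lowest of which was mt-Nd2, and the end of mt-Rnr2 lay above 5 of them.

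An alignment across a gene end holds bases of the ribosomal RNA and of the neighbouring tRNA gene, as an uncut precursor would. Strand is unknown, and the source of these alignments was not tested. They were counted where at least 10 bases lay on each side, which gives 53 start positions per end, and set against the mean number of alignments per start position inside the gene. That mean was 2005, 1487 and 1799 for mt-Rnr1 and 4266, 4032 and 5374 for mt-Rnr2 in litters 1 to 3.

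Crossing was rarest on both sides of mt-Tv. At the 3′ end of mt-Rnr1, 1060, 403 and 708 alignments reached into mt-Tv in litters 1 to 3, which was 0.750% ± 0.243 of the rate inside the gene (SD, n = 3). At the 5′ end of mt-Rnr2, 1893, 726 and 1432 alignments began in mt-Tv, 0.560% ± 0.254 of the rate inside. Litter 1 was highest and litter 2 lowest at both. Alignments that hold the whole of mt-Tv, 69 bases, with bases of both ribosomal RNA genes can start at 2 positions only, and they numbered 45, 14 and 26. The full sequence they span is mt-Tv, bases 1025 to 1093: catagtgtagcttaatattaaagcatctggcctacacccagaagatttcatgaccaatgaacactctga

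Relative to its own last bases, mt-Rnr1 showed no step at its 3′ end. Coverage was 1678, 638 and 1032 at its last base and 1666, 643 and 1038 at the first base of mt-Tv. The rate of crossing was 95.5% ± 12.3 of that at the 50 start positions just inside. mt-Tv itself had a mean coverage of 2057, 844 and 1475. The low level from base 920 on and the level of the tRNA gene were thus of similar size in each litter. At the 5′ end of mt-Rnr2, by contrast, crossing was 3.12% ± 1.37 of the rate at the adjacent 50 start positions.

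The outer ends were crossed more often. At the 5′ end of mt-Rnr1, 4118, 3515 and 7505 alignments began in mt-Tf in litters 1 to 3, 5.40% ± 2.16 of the rate inside the gene. Litter 3 was highest there, at 7.87%, with 3.87% and 4.46% in litters 1 and 2. Without litter 3 the mean was 4.17%. Per 1000000 nuclear alignments these were 121, 108 and 185. At the 3′ end of mt-Rnr2, 12018, 5347 and 7573 alignments reached into mt-Tl1, 3.49% ± 1.58 of the rate inside the gene and 31.3% ± 6.56 of that at the adjacent 50 start positions. There litter 1 was highest, at 5.32%, with 2.50% and 2.66% in litters 2 and 3.

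Coverage continued from mt-Rnr2 through mt-Tl1 into mt-Nd1. It was 17178, 7920 and 10955 at the last base of mt-Rnr2 in litters 1 to 3, and mt-Tl1 had a mean of 16420, 9703 and 13375. mt-Tl1 has 75 bases, more than the 72 of an alignment, so no alignment can join mt-Rnr2 with mt-Nd1. Crossing from mt-Rnr2 into mt-Tl1 was 22.8% ± 5.14 of the rate inside mt-Nd1, and crossing from mt-Tl1 into mt-Nd1, with 11360, 7379 and 10242 alignments, was 27.3% ± 4.85 (SD, n = 3).

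The ends of protein genes that border no other protein gene give the comparison. Over 18 such ends, crossing had a median of 5.98% of the rate inside the gene, with a range of 0.317% at the right end of mt-Cytb to 39.0% at the left end of mt-Nd3. Of these 18 ends, 2 lay below the ends of mt-Rnr1 and mt-Rnr2 at mt-Tv, 7 below the 3′ end of mt-Rnr2 and 9 below the 5′ end of mt-Rnr1. The ribosomal RNA genes were thus within the range of the protein genes, and no test was made.

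**Figure D5:**
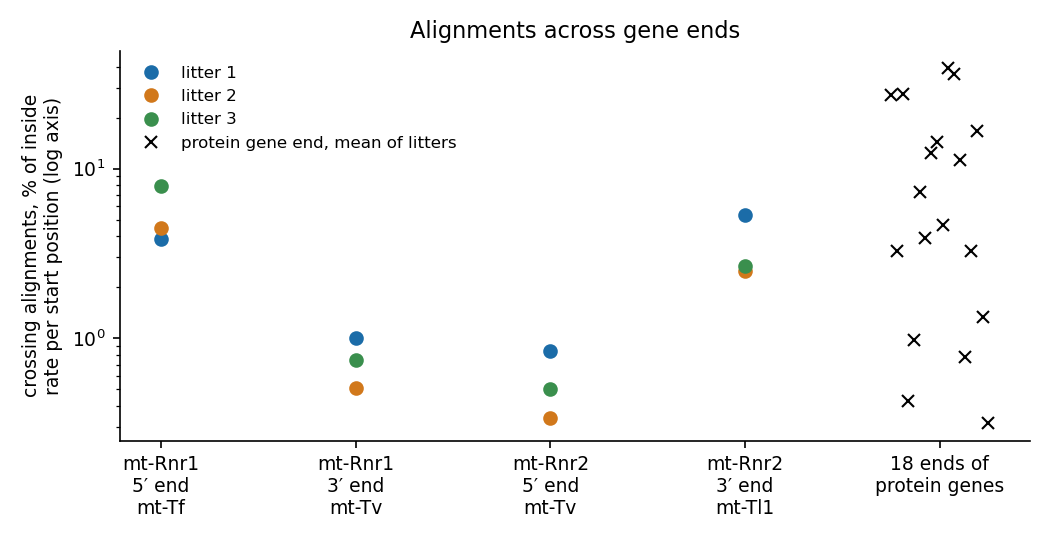
Coloured points give, for each litter, the rate of alignments across a gene end with at least 10 bases on each side, as a percent of the rate inside the gene (log axis). Crosses are means over litters at 18 ends of protein genes. The ends at mt-Tv lie between 0.340% and 0.997%, and the outer ends between 2.50% and 7.87%.

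Part of mt-Rnr2 was also counted on chromosome 10. In reverse orientation, mm9 bases 95540158 to 95540532 of that chromosome corresponded to mitochondrial bases 1508 to 1882, a stretch on the flank of the first peak and in the trough. Of 304 start positions with at least 20 alignments there in every litter, 46 had exactly the mitochondrial counts in all 3 litters, and the median position had 95.7%, 96.0% and 95.6% of the mitochondrial count. These 46 were 2.92% of the 1576 start positions of mt-Rnr2 with at least 50 alignments in every litter. For mt-Rnr1, 0 of 760 such positions recurred in a run elsewhere. How the aligner shared such reads between both places is not known.

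By nuclear total, the level of mt-Rnr2 varied little across the 3 litters. Centred over litters on the log2 scale, it stood at -0.02, -0.04 and 0.06 in litters 1 to 3, but at 0.02, -0.26 and 0.24 with factors over all covered windows. mt-Rnr1 stood at 0.26, -0.11 and -0.15 by nuclear total and at 0.30, -0.33 and 0.03 over all covered windows. Among genes of at least 200 bases, the nearest to mt-Rnr2 in this pattern were mt-Rnr1 at a Euclidean distance of 0.36, mt-Cytb at 0.48 and mt-Co2 at 0.50. The nearest to mt-Rnr1 were mt-Nd1 at 0.26, mt-Co3 at 0.26 and mt-Nd3 at 0.30. A scale shifts all genes of a litter alike, so it leaves these distances as they are. They rest on 3 litters that share their nuclear totals, and they are descriptions.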

How the data were processed

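The labels' protocols give SPIA amplification of 2-cell embryo RNA from 3 litters with a Nugen kit, Covaris fragmentation of the cDNA and an Illumina library kit. The submitters' processing notes name Bowtie as a tool and mm9 as the build. The sources used here give no version, mismatch setting or rule for multiple matches. The deposited values are coverage (signal), whole numbers of reads over each base in a bedGraph track, per the file headers. Values of 1000000 or more were rounded to 6 digits by the authors.

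Starts of 72-base alignments were recovered from the changes in coverage, from both ends of the chromosome. They were exact at all 16299 bases in litters 1 and 2 and at 16240 in litter 3. The other 59 lie under rounded values and were averaged from both directions. On data simulated from each litter, 100% of exact positions were recovered and the largest error at the others was 6.5 alignments. All simulated alignments had the 72 bases that the recovery assumes. The simulation thus checks the arithmetic, and it cannot test that length in the data.

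Gene bounds and sequences are those of GENCODE M21 (GRCm38). Its mitochondrial chromosome is the same reference sequence as in mm9 by general knowledge, and the sequences were not compared here. Its genes fit within the 16299 bases of the files. Nuclear genes, and thus markers of embryo and other cell types, were not analysed here.

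Genes were named as the members, their neighbours, and the 3 genes nearest in litter pattern. mt-Nd4 and mt-Nd2, and the protein genes at the ends of a range, were named after their values were seen. Members and lists were chosen with earlier results of these data known. Errors are SDs over the litters, which the labels number 1 to 3, and they may hold technical spread. Alternatives covered bounds, step sizes, limits, overhangs, scalings and leaving out each litter. Scaling by windows and crossing relative to adjacent positions were added after seeing the data. Tables were computed in Python 3.11.15 (with scipy 1.17.1, pandas 2.3.3, numpy 2.4.6) and drawn with matplotlib 3.10.9.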

Additional observations from a re-analysis of the deposited data

How the results depend on the processing

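Of 120 alternative values, 95 stayed within 1 SD (counts within 1.5 times) and 25 moved. Counting distinct start positions gave a ribosomal RNA share of 15.8% and a ratio of mt-Rnr2 to mt-Rnr1 of 1.00, since nearly every position of both genes is filled. The share was 72.1% without bases whose counts recur on nuclear sequence and the ratio was 1.39 by the median base; the causes were not tested. The peak steps of mt-Rnr1 numbered 4 at limits of 1.5 and 0.67, 0 at limits of 3 and 0.33, and 1 to 3 when each litter was left out, with 3 without litter 3. Peak steps of 100 bases covered 0% of mt-Rnr1. The gap steps of mt-Rnr2 numbered 2 at limits of 3 and 0.33. Coverage of the first bases was 37.3% (25 bases) and 72.4% (100 bases) of the median step in mt-Rnr1, and 12.0% and 25.7% in mt-Rnr2. Coverage of the last 100 bases of mt-Rnr2 was 34.5%. Within 10 bases, the first base stood at 2.52 times its neighbours in mt-Rnr1 and 0.939 in mt-Rnr2. With at least 1 base on each side, crossing was 13.5% at the 5′ end of mt-Rnr1 and 1.45% at that of mt-Rnr2, and starts rise 4 bases before the first base. Against the median inside the gene it was 1.05% and 6.58% at the 5′ and 3′ ends of mt-Rnr2. Relative to the adjacent 50 start positions, an alternative added later, it was 95.5% at the 3′ end of mt-Rnr1 and 3.12% and 31.3% at the 5′ and 3′ ends of mt-Rnr2. Per nuclear alignment, litter 3 differed from the mean of the other litters in the ribosomal RNA genes by 2.03%, by 22.8% with factors over all covered windows and by -2.27% without windows that share runs with the mitochondrial chromosome. Leaving out a litter cannot move a mean over the litters by as much as its SD. For values judged by SD, the alternatives that left out a litter were thus bound to stay within it, and they do not test stability. No paired analysis was possible because there is 1 group. The lowest coverage in either gene was 527 reads. With 1 library per litter, amplification noise cannot be separated from differences between litters.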
